A study of Mus musculus with 13 samples.

Results

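The genes described here are the semaphorins, plexins, neuropilins, ephrins and Eph receptors expressed in single cells of the mouse medial amygdala. They were taken by symbol, as every semaphorin, plexin, neuropilin, ephrin and Eph receptor of a deposited count table, and make up 51 of its 16961 genes. They comprise 20 semaphorins, 9 plexins, 2 neuropilins, 12 Eph receptors and 8 ephrins. Cells came from C57BL/6J mice that were housed singly before dissociation and otherwise untreated, in 6 male and 7 female libraries. Mice were 8 weeks old in male replicates 3 and 5 and in female replicate 3, and 9 weeks old in the other libraries. The study compared the sexes in a region known for its part in social and parental behaviour. Cells were dissociated by Act-Seq, which blocks new transcription with an inhibitor during dissociation. They were then captured with barcoded beads in droplets by Drop-seq, which counts messenger RNAs by unique molecular identifiers (UMIs) read near the 3′ end of the transcript.

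Semaphorins are secreted, membrane-spanning or lipid-anchored cues, and plexins are their signalling receptors. Secreted class 3 semaphorins mostly bind a neuropilin, which pairs with an A plexin or Plxnd1, whereas Sema3e binds Plxnd1 directly. Ephrins are membrane-bound ligands of the Eph receptor tyrosine kinases, with A ephrins lipid-anchored and B ephrins membrane-spanning, and signals can run into either of the touching cells. These cues are known for steering growing axons and blood vessels, and in adult brain for roles at synapses, in myelinating cells and at the vessel wall.

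The deposited cell names placed each of 43388 cells in 1 of 8 classes. Of these cells, 24808 had at least 500 detected genes, 269 were removed as doublets, and 24539 were kept, 11542 from males and 12997 from females. The libraries held 3735935 to 7863915 UMIs. A total of 48 barcodes occurred in 2 libraries. Known markers of each class were highest in that class, except Gpr17 among the 4 markers of oligodendrocyte precursors. No label ties a library to an animal, so the spread between libraries may be partly technical and p-values measure that spread only. Levels are in CPM, a gene's UMI count scaled by the total UMI count of its class in the library. A level is thus a share of the class's RNA, and fewer expressing cells cannot be told apart from less RNA per cell.

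The members were spread over neurons, glia and vessels. A total of 45 of the 51 reached a mean of 20 CPM in at least 1 class. Of the 45, 16 were highest in neurons, 8 in endothelial cells, 7 in astrocytes and 5 in newly formed oligodendrocytes. Another 4 were highest in oligodendrocyte precursors, 3 in microglia, 2 in oligodendrocytes and 0 in mural cells. These are shares of 35.6%, 17.8%, 15.6%, 11.1%, 8.89%, 6.67%, 4.44% and 0%. Over all genes at this level the shares were 16.4%, 12.6%, 9.15%, 12.7%, 16.4%, 14.6%, 6.72% and 11.4% in the same order. For 23 of the 45, the lowest library in the highest class lay above the highest library in the next class. Over all 12001 genes at this level the share standing clear in this way was 27.0%. The median ratio of the highest to the next class was 2.72 for the 45 genes and 1.39 for all genes. The authors drew the classes from expression in these cells, so these values describe the classes and are not tests between them. The other 6 genes stayed below 20 CPM in every class: Efna4, Epha2, Epha3, Ephb2, Sema3f and Sema6c. Of these, Epha2 and Sema6c had their highest mean in mural cells, at 17.9 and 18.1 CPM, so the 0 for mural cells depends on the 20 CPM minimum.

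**Figure D1:**
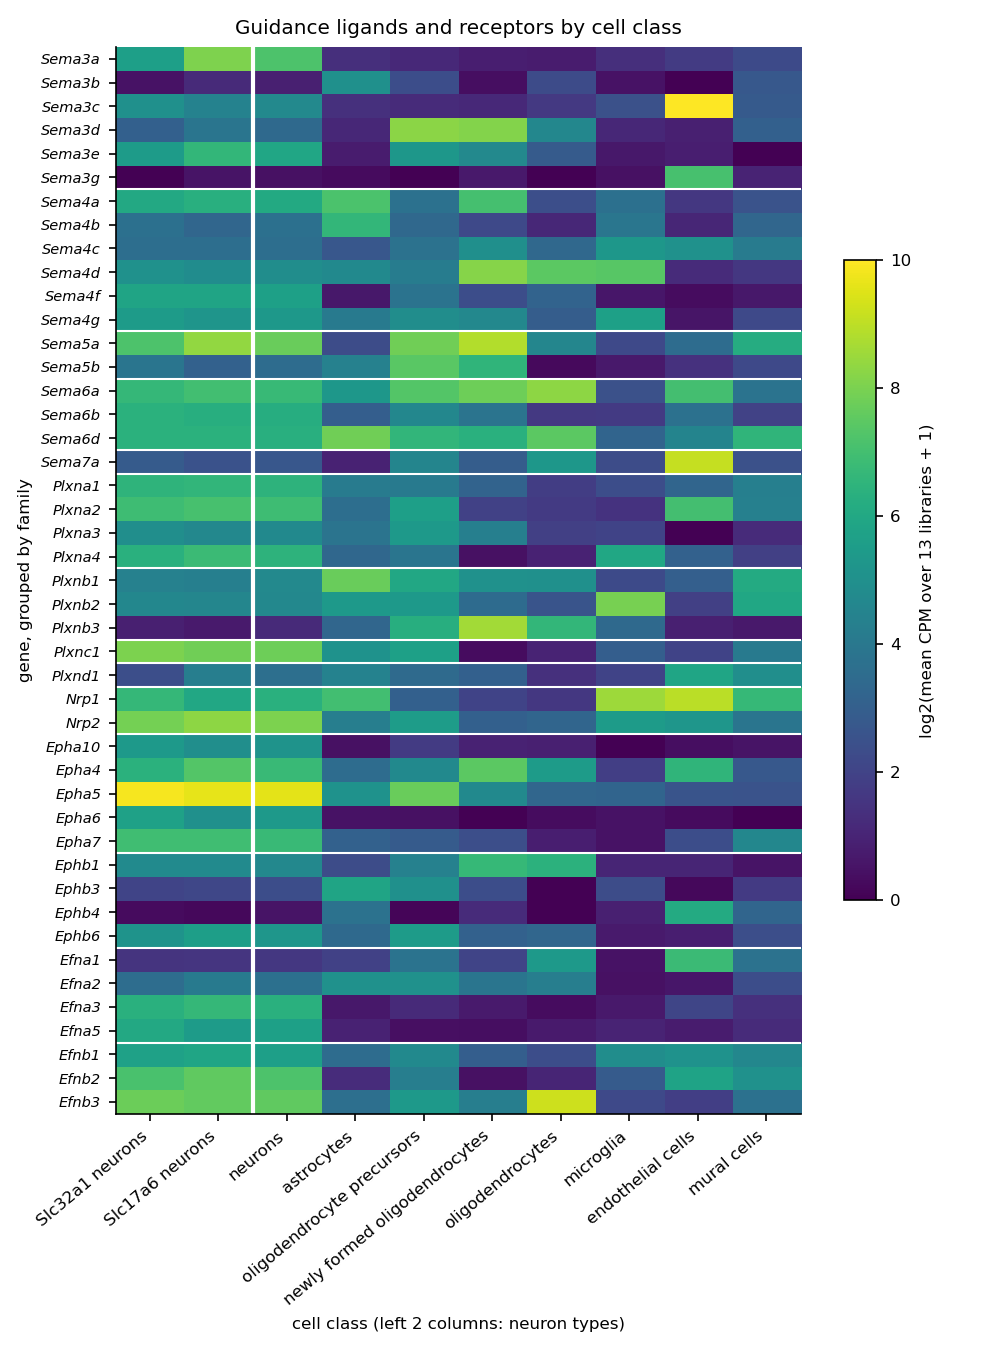
Mean level of the 45 genes that reached 20 CPM, as log2(mean CPM over 13 libraries + 1), with genes grouped by family down the page and 8 cell classes across it, after the Slc32a1 and Slc17a6 neurons on the left. The brightest cells are Sema3c and Sema7a in endothelial cells, Epha5 in neurons and Efnb3 in oligodendrocytes.

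Among the secreted semaphorins, Sema3c and Sema3g marked endothelial cells. Sema3c, an attractant for some axons and for vascular and cardiac cells in mouse development, had 1000.0 ± 208 CPM in endothelial cells (SD, n = 13) against 25.03 ± 8.67 CPM in neurons, the next class. Its endothelial libraries had a lowest, median and highest value of 698, 941 and 1469 CPM. Sema3g had 134 ± 57.7 CPM in endothelial cells and 0.999 CPM in mural cells. Each was highest in endothelial cells in 13 of 13 libraries. The other secreted members were spread over other classes. Sema3a, a repellent of axons that signals through Nrp1, had 145 ± 56.4 CPM in neurons and at most 3.71 CPM in any other class. Sema3b had 31.4 ± 14.6 CPM in astrocytes, and Sema3d had 305 ± 35.3 CPM in oligodendrocyte precursors. Sema3e had 59.7 ± 29.8 CPM in neurons and 38.3 ± 12.5 CPM in oligodendrocyte precursors, and these classes overlapped. Summed over the 7 class 3 genes, the level was 1139 ± 223 CPM in endothelial cells, 350.1 ± 43.1 CPM in oligodendrocyte precursors and 8.95 ± 7.46 CPM in microglia.

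The lipid-anchored Sema7a, a ligand of integrins and of Plxnc1, was also endothelial. Its level was 561 ± 139.8 CPM in endothelial cells against 38.3 ± 5.24 CPM in oligodendrocytes, the next class, and it was highest in endothelial cells in 13 of 13 libraries. Its receptor Plxnc1 was highest in neurons, with 224 ± 27.7 CPM there, 50.7 ± 7.84 CPM in oligodendrocyte precursors and 3.05 CPM in endothelial cells. The membrane-spanning semaphorins were mostly glial. Sema4b and Sema4a had 96.4 ± 20.1 and 143 ± 12.6 CPM in astrocytes, and Sema6d, a ligand of Plxna1 and Plxna4, had 228 ± 23.1 CPM there and 177 ± 24.8 CPM in oligodendrocytes. Of these 3 genes, Sema4b alone stood clear of its next class, since Sema4a was as high in some libraries of newly formed oligodendrocytes. Sema4d, the ligand of Plxnb1, had 287 ± 92.3 CPM in newly formed oligodendrocytes, 179 ± 48.9 CPM in oligodendrocytes and 168 ± 21.5 CPM in microglia. Sema6a, a ligand of Plxna2 and Plxna4, had 316 ± 66.7 CPM in oligodendrocytes and 220.4 ± 83.6 CPM in newly formed ones. Sema4g and Sema4c were highest in microglia, at 50.4 ± 12.8 and 37.9 ± 11.6 CPM, but overlapped the next classes. Sema4f and Sema6b were the members of these classes that stood clear in neurons, with 50.3 ± 11.9 and 73.7 ± 11.7 CPM.

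The B plexins were each highest in a different glial class. Plxnb1 had 212 ± 14.96 CPM in astrocytes, where its lowest library was above every library of mural cells, the next class at 67.9 ± 26.7 CPM. Plxnb2 had 248 ± 23.2 CPM in microglia against 60.9 ± 25.98 CPM in mural cells. Plxnb3, a receptor of Sema5a, had 389 ± 73.9 CPM in newly formed oligodendrocytes against 96.9 ± 9.27 CPM in oligodendrocytes. Each of these 3 receptors was highest in its class in 13 of 13 libraries. Oligodendrocyte precursors held all 3, with 63.2 CPM of Plxnb1, 40.6 CPM of Plxnb2 and 76.9 CPM of Plxnb3. Plxnb1 overlaps Gm7628 on the opposite strand, and the labels do not state whether strand was used in counting.

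The A plexins, which signal for class 3 and class 6 semaphorins, had no such pattern. Plxna1 stood clear in neurons, with 86.3 ± 19.9 CPM, though its 3′ end overlaps Gm26811 on the opposite strand. Plxna4 had 86.6 ± 22.6 CPM in neurons and 61.8 ± 12.6 CPM in microglia, Plxna3 had 40.5 ± 7.33 CPM in oligodendrocyte precursors and 25.9 ± 6.35 CPM in neurons, and Plxna2 had 129 ± 71.9 CPM in endothelial cells and 117 ± 20.7 CPM in neurons. In all 3 the libraries of the highest and the next class overlapped, and Plxna2 was highest in endothelial cells in only 5 of 13 libraries. Plxnd1, known for guiding vessels, had 57.1 ± 15.3 CPM in endothelial cells and 29.6 ± 21.9 CPM in mural cells, again with overlap.

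The neuropilins differed from each other. Nrp1, which also binds vascular endothelial growth factor, had 499 ± 96.2 CPM in endothelial cells, 371 ± 45.6 CPM in microglia, 123 ± 19.4 CPM in astrocytes and 80.2 ± 13.7 CPM in neurons. Its libraries from endothelial cells and microglia overlapped. Nrp2 had 263 ± 41.4 CPM in neurons, and its lowest neuronal library was above every library of oligodendrocyte precursors, the next class at 45.1 ± 8.60 CPM. In oligodendrocytes both were low, at 2.10 CPM for Nrp1 and 8.61 CPM for Nrp2.

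The A ephrins were highest in different classes. Efna3 and Efna5 had 79.6 ± 10.4 and 50.1 ± 9.77 CPM in neurons and stood clear there, with means of at most 3.31 and 1.35 CPM in any other class. Efna3 overlaps Gm15998 on the opposite strand. Efna1 and Efna2 were highest elsewhere. Efna1, first described as a gene induced in human endothelial cells, had 110.2 ± 45.7 CPM in endothelial cells against 40.5 ± 5.91 CPM in oligodendrocytes. Efna2 was close in level between astrocytes, at 32.8 ± 4.996 CPM, and oligodendrocyte precursors, at 32.2 ± 5.95 CPM.

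Among the A receptors, Epha5, Epha6, Epha7 and Epha10 all stood clear in neurons. Epha5 had a lowest, median and highest neuronal library of 511, 786 and 1082 CPM, and its next class, oligodendrocyte precursors, had 211 ± 21.9 CPM. Epha7 and Epha10 had 109 ± 17.7 and 34.6 ± 5.96 CPM in neurons. Epha6 had 41.1 ± 6.42 CPM in neurons and at most 0.418 CPM in another class, though its 3′ end overlaps 4930547E14Rik. Epha4, which binds A and B ephrins alike, had its highest mean outside neurons. It had 179 ± 55.9 CPM in newly formed oligodendrocytes, 108 ± 20.4 CPM in neurons and 91.9 ± 38.5 CPM in endothelial cells. The libraries of newly formed oligodendrocytes and neurons overlapped, and Epha4 was highest in newly formed oligodendrocytes in 10 of 13 libraries.

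The B ephrins and B receptors were spread over neurons, glia and endothelial cells, with ligands and receptors both present in several classes. Efnb3 had 598 ± 29.3 CPM in oligodendrocytes, with libraries of 542 to 652 CPM, against 189.7 ± 29.9 CPM in neurons. Efnb2, known with Ephb4 for setting arteries apart from veins, had 146 ± 28.97 CPM in neurons and 54.8 ± 25.7 CPM in endothelial cells. Efnb1 had 49.1 ± 7.03 CPM in neurons and 33.4 ± 11.1 CPM in endothelial cells. Ephb4 itself had 68.1 ± 12.9 CPM in endothelial cells and stood clear of astrocytes at 12.7 ± 2.996 CPM, though its 3′ end overlaps Zan on the opposite strand. Ephb3 had 56.1 ± 11.2 CPM in astrocytes and 31.1 ± 8.49 CPM in oligodendrocyte precursors. Ephb6, a receptor without kinase activity, had 43.7 ± 7.89 CPM in oligodendrocyte precursors and 37.3 ± 9.26 CPM in neurons. Ephb1 had 104 ± 31.3 CPM in newly formed oligodendrocytes. For Efnb1, Efnb2, Ephb1, Ephb3 and Ephb6 the libraries of the highest and the next class overlapped. Gm26846 overlaps Ephb1 on the opposite strand, and another gene, 9630041A04Rik, overlaps its 3′ end.

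In endothelial cells, whose genes are widely bound by ETS transcription factors, 5 members stood clear: Efna1, Ephb4, Sema3c, Sema3g and Sema7a. Of these, the promoters of Sema7a and Ephb4 are shown. Each is the 250 bases before the annotated start, read 5′ to 3′ on the plus strand from RefSeq (GRCm38.p6), at chr9:57939862-57940111 for Sema7a and chr5:137349859-137350108 for Ephb4, with capitals marking the letters GGAAGT on either strand (ACTTCC on the strand shown).
Sema7a: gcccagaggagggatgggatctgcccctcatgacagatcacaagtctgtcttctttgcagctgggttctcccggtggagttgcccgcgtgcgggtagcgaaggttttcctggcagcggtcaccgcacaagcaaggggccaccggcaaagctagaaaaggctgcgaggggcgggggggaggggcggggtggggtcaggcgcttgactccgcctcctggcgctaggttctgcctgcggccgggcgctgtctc
Ephb4: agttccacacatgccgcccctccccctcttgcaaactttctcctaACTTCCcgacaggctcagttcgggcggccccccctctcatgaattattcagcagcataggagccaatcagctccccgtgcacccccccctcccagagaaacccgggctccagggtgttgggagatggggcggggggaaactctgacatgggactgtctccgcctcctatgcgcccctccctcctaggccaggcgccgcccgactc
The promoters of 45 of the 51 genes were in the RefSeq table, with 59 start sites. GGAAGT on either strand was found in 1 of 9 windows of the 8 genes highest in endothelial cells, that of Ephb4, and in 19.7% of all 32851 windows of this length. In windows of genes highest in the oligodendrocyte lineage it was found in 1 of 11, and in those of neurons in 4 of 17. The letters ACAAAG, bound by SOX factors, were found in 0 of 9 endothelial, 2 of 11 oligodendrocyte lineage and 2 of 17 neuronal windows, and in 16.5% of all windows. These matches describe the letters only.

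The 3 oligodendrocyte classes, from precursor to mature cell, carried different members. A total of 28 members reached 20 CPM in at least 1 of these classes, and 16 were highest in precursors, 7 in newly formed cells and 5 in mature cells. Among all 9338 genes at this level, 54.4% were highest in precursors, 29.2% in newly formed cells and 16.4% in mature cells, so the split of the members was near that of all genes. The newly formed class rests on 12 to 56 cells per library.

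Sema5b and Epha5 were highest in precursors in 13 of 13 libraries, and Sema3d in 7 of 13. Sema5b had 171 ± 16.8 CPM in precursors, 91.4 ± 20.05 CPM in newly formed cells and 0.177 ± 0.353 CPM in mature cells. Sema3d had 305 ± 35.3, 283 ± 60.9 and 23.4 ± 8.31 CPM in the same order. Sema3d was thus level between the earlier classes and low in the mature one, whereas Epha5 was low in both later classes, with 26.2 ± 17.2 CPM in newly formed and 8.95 ± 3.21 CPM in mature cells. Plxna2, Plxnc1 and Nrp2 followed Epha5 in being clear in precursors, with 48.8, 50.7 and 45.1 CPM there and under 10 CPM in both later classes.

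Newly formed cells were the peak of a ligand and its receptor, Sema5a and Plxnb3. Sema5a had 224 ± 24.3 CPM in precursors, 454 ± 134 CPM in newly formed cells and 23.3 ± 15.8 CPM in mature cells. Plxnb3 had 76.9 ± 7.92, 389 ± 73.9 and 96.9 ± 9.27 CPM. Both were highest in newly formed cells in 13 of 13 libraries, as were Epha4 and Sema4a. Sema4a had 132 ± 53.8 CPM there, against 12.4 ± 4.10 CPM in precursors and 4.30 ± 3.11 CPM in mature cells.

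Sema4d and Ephb1 were low in precursors and high in both later classes. Sema4d had 17.5 ± 4.003, 287 ± 92.3 and 179 ± 48.9 CPM across the 3 classes, and Ephb1 had 19.9 ± 5.90, 104 ± 31.3 and 85.9 ± 17.1 CPM. Efnb3 was the member most tied to the mature class, with 40.2 ± 8.34, 18.1 ± 11.9 and 598 ± 29.3 CPM. Efna1, Sema6d and Sema7a were also highest in mature cells in 13 of 13 libraries, with 40.5, 177 and 38.3 CPM.

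**Figure D2:**
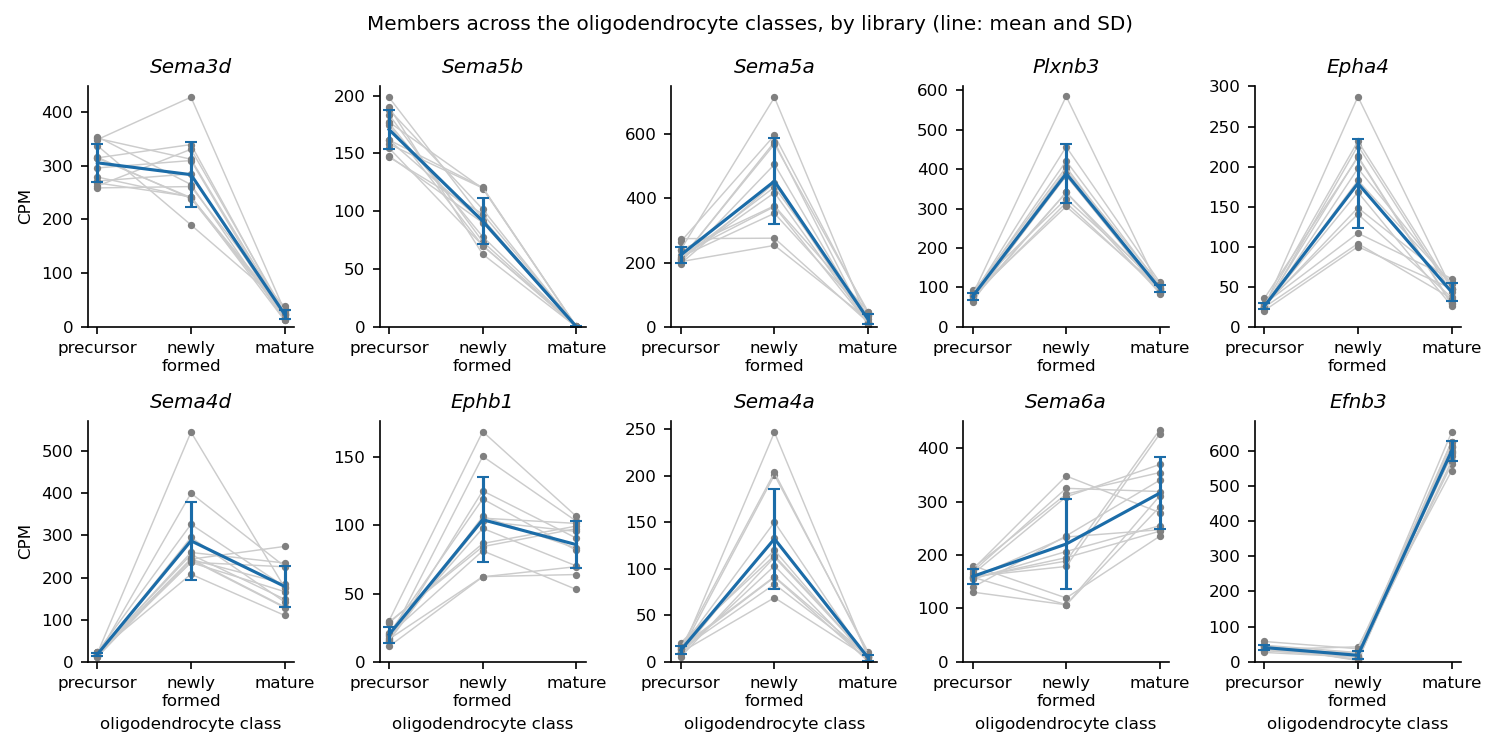
Level in CPM of 10 members in oligodendrocyte precursors, newly formed oligodendrocytes and mature oligodendrocytes. Grey points and lines are the 13 libraries, and the blue line is their mean with its SD. Plxnb3, Epha4 and Sema4a peak in the newly formed class in every library, and Efnb3 is high in the mature class only among these 3.

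Neurons were divided by the vesicular transporter they expressed. Slc32a1 loads inhibitory transmitter and Slc17a6 loads glutamate, and neither is a member, so the division did not use the members. A total of 1373 neurons had UMIs of Slc32a1 and none of Slc17a6, and 1254 had UMIs of Slc17a6 and none of Slc32a1. Another 52 had both and 937 had neither, and these were left out. As a measure of free RNA, Slc32a1 was found in 0.574% of astrocytes against 39.4% of neurons, at median depths of 1810.5 and 1753.5 UMIs per cell. The other way round, the 6 astrocyte markers summed to 2354 CPM (370 to 4291) in the whole neuron class, against 29875 CPM in astrocytes. They summed to 772 CPM in Slc32a1 neurons and 799 CPM in Slc17a6 neurons. The part of this astrocyte RNA in the levels given for neurons was not tested. The counts of each library and type were summed and tested with edgeR's quasi-likelihood test with the library as a block, adjusted by Benjamini-Hochberg over all genes tested.

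The types differed in both semaphorin and ephrin systems. Of the 51 members, 27 passed the filter on low counts. Of these, 5 were higher in Slc32a1 neurons, 7 were lower, and 15 did not pass the threshold of adjusted p 0.05. Among all 6140 genes tested, 8.47% were higher, 8.68% were lower and 17.1% passed in either direction. At an unadjusted p under 0.05 there were 16 members of the 27, against 28.9% of all genes. The median log2 difference was -0.06 for the members and 0.00 for all genes.

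Sema3a differed most among the members. Its lowest, median and highest library had 20.8, 51.2 and 93.3 CPM in Slc32a1 neurons, against 148, 265 and 537 CPM in Slc17a6 neurons. It was lower in Slc32a1 neurons in 13 of 13 libraries, and the types did not overlap. Its log2 difference was -2.48 ± 0.20 (SE), adjusted p = 2.9e-08. The gene lies on chromosome 5 at 13125414 to 13602565 on the plus strand (GENCODE M21, GRCm38). Sema3e and Sema5a, the other semaphorins that passed, were lower in Slc32a1 neurons as well. Sema5a had 91.1, 135 and 215 CPM in Slc32a1 neurons, against 161, 312 and 576 CPM in Slc17a6 neurons, with overlap, and its log2 difference was -1.13 ± 0.14 (SE), adjusted p = 2.3e-06. Sema3e had 44.3 ± 31.4 CPM in Slc32a1 neurons and 97.9 ± 56.95 CPM in Slc17a6 neurons (SD, n = 13), a log2 difference of -1.06 ± 0.29 (SE), adjusted p = 0.0228. Class 4 and class 6 semaphorins did not pass: the 3 class 6 genes tested, Sema6a, Sema6b and Sema6d, had adjusted p of 0.115, 0.601 and 0.887.

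The neuropilins went in opposite directions. Nrp1 had 51.3, 97.3 and 139.8 CPM in Slc32a1 neurons, against 38.3, 58.7 and 98.6 CPM in Slc17a6 neurons, and was higher in 10 of 13 libraries, with a log2 difference of 0.61 ± 0.15 (SE), adjusted p = 0.00341. Nrp2 had 166, 249 and 308 CPM in Slc32a1 neurons, against 175, 325 and 431 CPM in Slc17a6 neurons, and was lower in 13 of 13 libraries, with a log2 difference of -0.36 ± 0.09 (SE), adjusted p = 0.00231. For both genes the ranges of the types overlapped. Of the plexins, Plxna4 was lower in Slc32a1 neurons, at 80.4 ± 25.00 CPM, against 110.4 ± 33.03 CPM in Slc17a6 neurons, a log2 difference of -0.44 ± 0.13 (SE), adjusted p = 0.0119. Plxna1, Plxna2 and Plxnc1 did not pass, and their log2 differences were -0.06, -0.17 and 0.26.

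The A Eph receptors also went both ways. Epha6 had 28.8, 53.8 and 65.8 CPM in Slc32a1 neurons, against 11.4, 32.2 and 55.7 CPM in Slc17a6 neurons, and was higher in 12 of 13 libraries, with a log2 difference of 0.78 ± 0.19 (SE), adjusted p = 0.00193. Epha5 had 918 ± 166 CPM in Slc32a1 neurons and 796 ± 161 CPM in Slc17a6 neurons, a log2 difference of 0.24 ± 0.07 (SE), adjusted p = 0.0127. Epha10 had 41.2 ± 12.2 and 30.05 ± 11.01 CPM in the same order, a log2 difference of 0.54 ± 0.19 (SE), adjusted p = 0.0393. Epha4, by contrast, was lower in Slc32a1 neurons, at 82.8 ± 29.9 CPM, against 159 ± 59.03 CPM in Slc17a6 neurons, a log2 difference of -0.89 ± 0.23 (SE), adjusted p = 0.0141. Epha7 was nearly equal, with a log2 difference of -0.01 ± 0.13 (SE), adjusted p = 0.978.

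Of the ephrins, Efna5, a ligand of A receptors, was higher in Slc32a1 neurons, at 64.00 ± 16.3 CPM, against 44.4 ± 17.7 CPM in Slc17a6 neurons, a log2 difference of 0.53 ± 0.17 (SE), adjusted p = 0.0237. Efnb2 was lower, at 137 ± 29.7 CPM in Slc32a1 neurons and 188 ± 47.7 CPM in Slc17a6 neurons, a log2 difference of -0.41 ± 0.11 (SE), adjusted p = 0.00517. Some of these calls were close to the threshold. Efna5 no longer passed when male replicate 1, female replicate 3 or female replicate 7 was left out, at adjusted p of 0.0695, 0.0656 and 0.0511, with the 9-week libraries alone, at 0.0693, or with DESeq2, at 0.0659. Epha10 no longer passed when male replicate 1, 3, 4, 5 or 6 or female replicate 3 or 7 was left out, at adjusted p of 0.0618 to 0.101, or under 4 other settings, at 0.0501 to 0.238. Epha5 no longer passed with no library block, at 0.183, or with the 9-week libraries alone, at 0.0775. The neuron markers summed to 7628 CPM (6779 to 8734) in Slc32a1 neurons and 5113 CPM (4659 to 5966) in Slc17a6 neurons, and the part of this difference in the results was not tested.

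**Figure D3:**
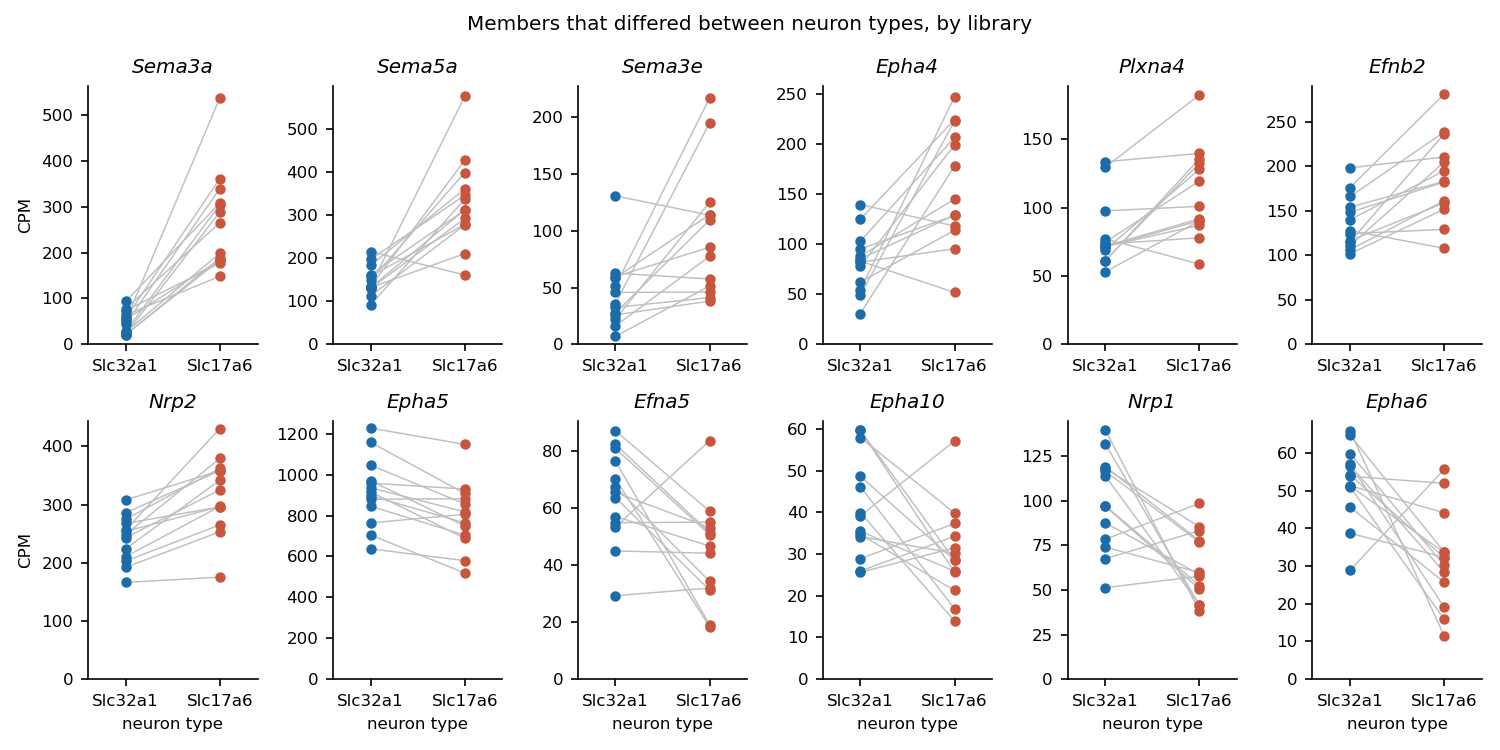
Level in CPM of the 12 members past adjusted p 0.05 between neuron types. Each point is 1 of 13 libraries and lines join the Slc32a1 neurons (left) and the Slc17a6 neurons (right) of the same library. Sema3a is lower in Slc32a1 neurons in all 13 libraries with no overlap, and in the other 11 genes the ranges overlap. The share of all genes tested without overlap was not counted.

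Genes that act with the members or beside them were tested in the same fit. Of 31 signalling partners of plexins and Eph receptors, 18 were tested, 1 was higher in Slc32a1 neurons and 3 were lower, beside 17.1% of all genes passing in either direction, so this count is not read as particular to the list. The higher gene was Adam10, a protease that can cleave ephrins, with 244 ± 40.5 CPM in Slc32a1 neurons and 197 ± 35.9 CPM in Slc17a6 neurons. The lower genes were Chn1, Dpysl3 and Mical2. Chn1, a Rac inhibitor that acts downstream of Epha4 in mouse, had 186 ± 40.1 CPM in Slc32a1 neurons and 318 ± 71.7 CPM in Slc17a6 neurons, a log2 difference of -0.74 with adjusted p = 1.7e-08 (edgeR), and was lower in 13 of 13 libraries. Of 22 genes of other guidance families, 20 were in the table and 11 were tested, with 3 called in each direction, against 8.47% of all genes higher and 8.68% lower. Robo1, Unc5d and Rgmb were higher in Slc32a1 neurons, and Unc5c, Ntng1 and Slit2 were lower. Robo1, a receptor of Slit cues, had 99.1 ± 29.7 CPM in Slc32a1 neurons and 38.1 ± 11.3 CPM in Slc17a6 neurons, a log2 difference of 1.34 with adjusted p = 3.5e-09.

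Between the sexes, few members passed the threshold. The same edgeR test compared male with female libraries within each class, and 2 calls were made, Sema7a in endothelial cells and Plxna2 in astrocytes. The members' median log2 difference ran from -0.17 in Slc32a1 neurons to 0.08 in newly formed oligodendrocytes, against 0.01 and 0.00 for all genes. In Slc32a1 neurons 23 of 30 members were lower in males and 7 were higher, but 0 were called. This lean was not tested, and the share of all genes lower in males was not counted. Endothelial Sema7a was higher in males. Its lowest, median and highest library had 529, 625.5 and 856 CPM in males, against 361, 483 and 543 CPM in females. Of the 6 male libraries, 5 lay above every female library, and male replicate 5 lay within the female range. The log2 difference was 0.51 ± 0.11 (SE), adjusted p = 0.00423. It passed under each of 7 alternatives and when each library in turn was left out, with adjusted p of at most 0.0445. The values rest on 60 to 258 UMIs per library. Among all 5224 genes tested in endothelial cells 1.19% passed, and 12 of the 51 members were tested. Sema7a lies on chromosome 9 at 57940112 to 57962865 on the plus strand (GENCODE M21, GRCm38).

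Sema7a was not the only measure that stood higher in male endothelial cells. The 6 endothelial markers summed to 29349 CPM (27849 to 31800.2) in males and 26577 CPM (24574 to 27305) in females, and these ranges did not overlap. Blood markers summed to 6115 CPM (0 to 22542) in males and 12370.2 CPM (107 to 52307) in females, and mural markers to 2152 CPM (1535 to 2957) in males and 2085 CPM (1347 to 2780.5) in females. The part of these in the result was not tested. In the 9-week libraries alone the log2 difference of Sema7a was 0.57. In the other classes where Sema7a was tested, its log2 differences were 0.12 in oligodendrocyte precursors and 0.13 in oligodendrocytes, with adjusted p of 0.977 and 0.910. Whether the difference itself varied between classes was not tested.

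Plxna2 was higher in male astrocytes. Its lowest, median and highest library had 10.1, 17.4 and 20.1 CPM in males, against 4.18, 7.07 and 9.93 CPM in females, with no overlap. The log2 difference was 1.14 ± 0.26 (SE), adjusted p = 0.0124. These values rest on 4 to 31 UMIs per library, and the call was lost without male replicate 1, at adjusted p = 0.0679. Among all 9778 genes tested in astrocytes 1.16% passed, and 24 of the 51 members were tested, of which 6 had an unadjusted p under 0.05, against 10.4% of all genes. Plxna2 lies on chromosome 1 at 194618218 to 194816869 on the plus strand. Neurons and endothelial cells both had more Plxna2 than astrocytes. In astrocytes the 5 neuron markers summed to 458 CPM (362 to 525) in males and 415 CPM (374 to 488) in females, against 6092 CPM (5528 to 6871) in neurons, and the 6 endothelial markers to 27.9 CPM (23.3 to 34.1) in males and 34.97 CPM (27.5 to 47.8) in females. The part of these in the result was not tested. In neurons the log2 difference of Plxna2 was -0.16, and in oligodendrocyte precursors -0.02.

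Endothelial Plxna2 and Efna1 fell just short of the threshold and were named after their values were seen. Plxna2 had 45.4, 194 and 290.1 CPM in male endothelial cells, against 54.1, 86.7 and 115 CPM in females, with male replicate 5 lowest of all 13 libraries. Its log2 difference was 0.998 ± 0.25 (SE), adjusted p = 0.0539. Efna1 had 64.8, 71.3 and 136 CPM in males, against 98.5, 119 and 223 CPM in females, with male replicate 5 the only male library within the female range. Its log2 difference was -0.74 ± 0.21 (SE), adjusted p = 0.0539. Without male replicate 5 both passed, at adjusted p of 2.2e-05 for Plxna2 and 0.00671 for Efna1. Plxna2 also passed without male replicate 4, at 0.00534, and under 6 of 7 alternatives to the processing or design, whereas Efna1 passed without female replicate 5, at 0.0383, and under 2 of 7. At an unadjusted p under 0.05 there were 6 members of the 12 tested in endothelial cells, against 10.9% of all genes there.

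**Figure D4:**
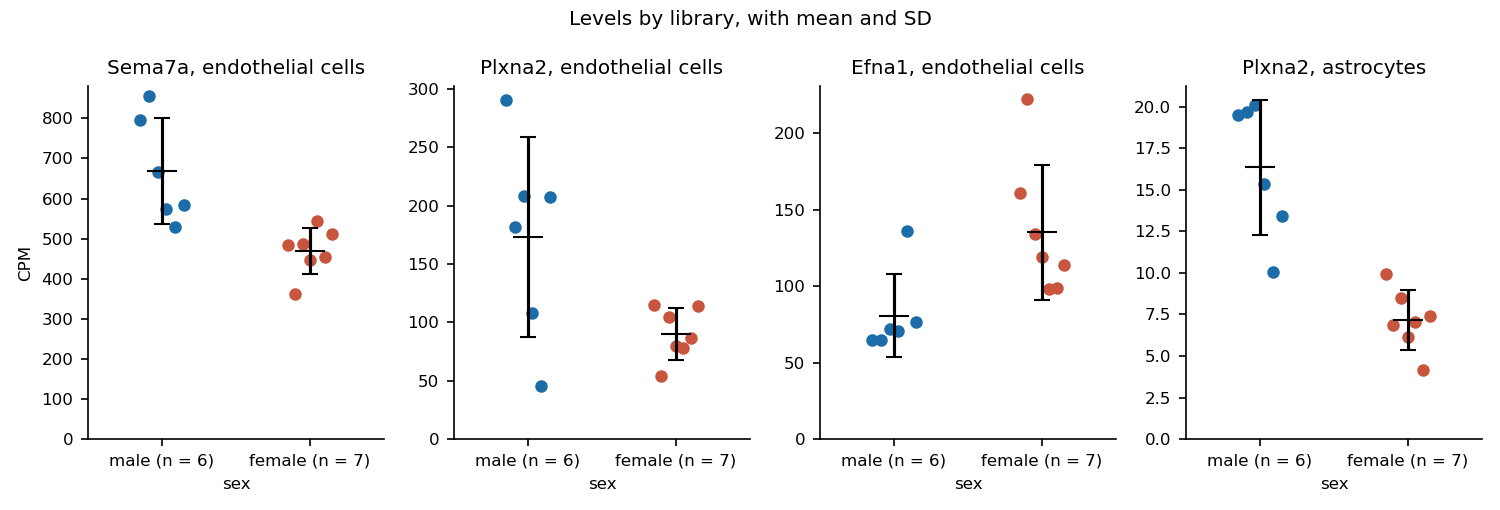
Level in CPM by library in males (left, n = 6) and females (right, n = 7) of Sema7a, Plxna2 and Efna1 in endothelial cells and of Plxna2 in astrocytes, with the mean and SD. Astrocyte Plxna2 does not overlap between the sexes, and male replicate 5 is the lowest male library for Sema7a and Plxna2 and the highest for Efna1 in endothelial cells.

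In the other classes edgeR called 0 members by sex, and DESeq2 called 0 as well. The numbers tested were 36 in oligodendrocyte precursors, 10 in newly formed oligodendrocytes, 17 in oligodendrocytes, 8 in microglia, 3 in mural cells, 38 in neurons, 30 in Slc32a1 neurons and 25 in Slc17a6 neurons. The counts at an unadjusted p under 0.05 were 2, 0, 2, 0, 1, 4, 3 and 0 in the same order. The shares of all genes at an unadjusted p under 0.05 were 6.07%, 3.89%, 7.65%, 7.23%, 6.65%, 6.18%, 7.85% and 4.09%. The shares of all genes called were 0.131%, 0.0889%, 0.320%, 0.362%, 0.123%, 0.0623%, 0.0891% and 0.100% in the same order. The member with the smallest p was Plxnc1 in oligodendrocyte precursors, Epha4 in newly formed oligodendrocytes, Sema6d in oligodendrocytes, Nrp1 in microglia, Sema5a in mural cells, Epha3 in neurons, Epha7 in Slc32a1 neurons and Epha5 in Slc17a6 neurons. Plxnc1, the receptor of Sema7a, had 56.99 ± 5.31 CPM in male precursors and 45.3 ± 5.03 CPM in female precursors, a log2 difference of 0.34 ± 0.13 (SE), adjusted p = 0.582. Sema6d had 160.2 ± 26.2 CPM in male oligodendrocytes and 191 ± 11.6 CPM in female oligodendrocytes, a log2 difference of -0.25 ± 0.09 (SE), adjusted p = 0.382. No gene of the signalling partner and other guidance lists passed by sex in any class.

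Epha7, an A receptor, had 56.3, 96.8 and 127 CPM in the Slc32a1 neurons of males, against 122, 142 and 168 CPM in those of females, a log2 difference of -0.66 ± 0.19 (SE), adjusted p = 0.391. The term for neuron type by sex, the male minus female difference in Slc32a1 neurons less that in Slc17a6 neurons, was -0.71 ± 0.24 (SE) for Epha7, adjusted p = 0.974. Of the 31 members tested for this term, edgeR called 0 and DESeq2 called 0, and 2 had an unadjusted p under 0.05. Among all 7327 genes 0.0136% were called and 4.57% had an unadjusted p under 0.05.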

How the data were processed

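Single-cell RNA was measured by Drop-seq in 13 libraries of medial amygdala. The authors deposited UMI counts per gene and cell, which are whole numbers, with the library and cell class in each cell name. The submitters' processing notes name bcl2fastq 2.17.1.14, the aligner STAR 2.5.0a and the genome build mm10, with no settings. How UMIs were collapsed, whether strand was used and how cells were chosen are not given in the sources used here.

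Kept cells had 500 or more detected genes, and doublets were called per library with Scrublet (scanpy 1.11.5, seed 1) and removed (1.08%). All 43388 cells were mapped to a library by name. Counts were summed per library and class. Sums of at least 10 cells entered edgeR 4.0.16 (TMM scaling, filterByExpr, robust quasi-likelihood F test, two-sided). P-values were adjusted by Benjamini-Hochberg across every gene in the fit. SE is the log2 fold change divided by the square root of F. Fold changes are male minus female, or Slc32a1 minus Slc17a6 neurons. Alternatives were DESeq2 1.42.0, its size factors, no filter, other cell sets, the replicate block, the 9-week libraries and each library left out. The fits were tested on simulated counts.

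The members and lists were chosen with earlier results of these data known. Named genes are up to 4 members per class, those highest there with at least 20 CPM, by their ratio to the next class. They also include every plexin and neuropilin, up to 10 members per direction past adjusted p 0.05 between neuron types, members past it by sex or else the smallest p in a class, and up to 6 genes per list. Other members are named to give each a level. The summary over oligodendrocyte classes and the counts of libraries highest in a class were added after values were seen.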

Additional observations from a re-analysis of the deposited data

Results flagged for a closer look

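Efna1, the A ephrin highest in endothelial cells, had 1 library far from the others of its sex. Male replicate 5 had 136 CPM in endothelial cells, whereas the other 5 male libraries had 64.8 to 76.4 CPM. Its gap to the nearest male library was 0.838 of the male range, above Dixon's 95% limit of 0.625. The 7 female libraries had 98.5 to 223 CPM. Of 24 groups examined in this way 1 was picked out, and chance alone picks about 1 in 20. Efna1 was added to these groups after its values were seen, so that rate does not apply to it.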

How the results depend on the processing

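Of 257 recomputed counts of called members, 242 stayed within 1.5 times the reported count. Every count that moved further was by sex in astrocytes or endothelial cells, the only classes with a call by sex. In astrocytes the count held under 4 of 7 alternatives and 10 of 13 left-out libraries, and in endothelial cells under 1 of 7 and 10 of 13. Of 499 recomputed single-gene results 468 kept their direction and side of the threshold and 0 reversed. The 12 calls between neuron types became 9 to 14, the 23 members standing clear in a class became 21 to 26, and counts of 0 stayed at 0. The count in astrocytes was 2 with no filter on low counts (adding Sema3b), with every deposited cell (adding Sema5b) and with the 9-week libraries only (adding Sema5b), and 0 to 2 when each library was left out, with 0 without male replicate 1 and 2 without male replicate 5 or female replicate 5. The count in endothelial cells was 2 with DESeq2, with every deposited cell and with doublets kept, 3 with no filter on low counts and with the 9-week libraries only, and 1 to 3 when each library was left out, with 3 without male replicate 5 and 2 without male replicate 4 or female replicate 5. The added members there were Plxna2 and Efna1. Beyond the settings themselves, the cause was not tested.

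The labels give both sexes the replicate numbers 1 to 6. With all classes summed, same-numbered libraries correlated between -0.255 and 0.190 in their deviations, and in neurons between -0.0795 and 0.137. With 6 pairs, and sums over classes that also vary with class make-up, these values cannot decide whether the numbers pair libraries. With the replicate block, endothelial cells had 2 calls, astrocytes 1 and the other classes 0. With no library block, the neuron types had 10. Plxna2 in astrocytes rests on 4 to 31 UMIs per library, and 3 UMIs in a library correspond to 1.48 to 6.02 CPM there. The filter on low counts left 10 of 51 members to test in newly formed oligodendrocytes and 3 of 51 in mural cells.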
